A study of Mus musculus with 8 samples.

Results

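The H3K27ac regions described here had a peak in both libraries of activated satellite cells (ASC), had none in either library of freshly isolated satellite cells (FISC), and lay at an end of a protein-coding gene. Peaks of the 4 deposited lists that shared at least 1 base were merged into 72585 union regions. A region counted as a gene-end region when its midpoint fell within 2 kb of the first or last coordinate of a protein-coding gene in RefSeq on mm10, which held for 15727 regions. The members were thus chosen by the presence and absence of peaks itself. Of the gene-end regions, 1248 were gained on activation (7.94% of gene-end regions), at 1204 of 21883 protein-coding genes. The series mapped H3K27ac by ChIPmentation, a chromatin immunoprecipitation in which the bound chromatin is tagged by a transposase, in muscle stem cells of skeletal muscle from C57BL/6 mice. ASC were isolated 2.5 days after injury with BaCl2, which kills muscle fibres, and FISC came from muscle given no treatment. Each condition had 2 H3K27ac libraries, and 4 input libraries were not used here. The labels name no transgene, no sort marker and no animal behind a library, so the spread between libraries may be technical.

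Acetylation of lysine 27 on histone H3 marks promoters and enhancers in use, and it commonly forms a broad block that starts at the transcription start site and runs into the gene. Satellite cells rest in quiescence beside the muscle fibre and, once the fibre is injured, enter the cell cycle as myoblasts, a part of which then commit to fusion and build sarcomeres. An acetylated gene end may be the promoter itself, a flank of it, or the far end of the gene, where enhancers of that gene or of a neighbour can lie. Because peaks were called on bulk cells, more acetylated cells and more acetylation per cell cannot be told apart in any value below.

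The start sites of 6 genes whose gained region covered an annotated start are shown because they come from the gene groups on which the results turn. Ccnb1, Cdc6 and Mybl2 belong to the cell cycle, Ttn and Klhl41 to the sarcomere, and Chrng encodes the embryonic subunit of the muscle acetylcholine receptor. Each window holds 250 bases before and 50 bases after the start site in the direction of transcription (RefSeq, GRCm38.p6). Capitals mark matches to CCAAT, to the E2F motif GCGGGAA, to the E-box CAGCTG bound by the factors of the MyoD family, and to the motif of MEF2. The windows lie at chr13:100786437-100786736 for Ccnb1 (minus strand), chr11:98907901-98908200 for Cdc6 (plus strand), chr2:163054385-163054684 for Mybl2 (plus strand), chr2:76982498-76982797 for Ttn (minus strand), chr1:87205561-87205860 for Chrng (plus strand) and chr2:69669870-69670169 for Klhl41 (plus strand).
Ccnb1: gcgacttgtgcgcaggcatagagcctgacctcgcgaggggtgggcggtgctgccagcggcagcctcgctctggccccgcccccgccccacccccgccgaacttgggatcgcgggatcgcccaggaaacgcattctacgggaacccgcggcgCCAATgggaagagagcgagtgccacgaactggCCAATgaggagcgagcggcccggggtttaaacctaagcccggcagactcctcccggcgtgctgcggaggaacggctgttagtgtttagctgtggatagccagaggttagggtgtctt
Cdc6: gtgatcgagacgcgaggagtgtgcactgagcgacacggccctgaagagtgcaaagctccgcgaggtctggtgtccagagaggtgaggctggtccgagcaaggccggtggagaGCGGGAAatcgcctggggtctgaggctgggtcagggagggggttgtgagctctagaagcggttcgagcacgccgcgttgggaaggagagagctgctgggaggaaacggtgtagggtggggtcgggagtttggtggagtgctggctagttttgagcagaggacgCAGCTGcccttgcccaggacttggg
Mybl2: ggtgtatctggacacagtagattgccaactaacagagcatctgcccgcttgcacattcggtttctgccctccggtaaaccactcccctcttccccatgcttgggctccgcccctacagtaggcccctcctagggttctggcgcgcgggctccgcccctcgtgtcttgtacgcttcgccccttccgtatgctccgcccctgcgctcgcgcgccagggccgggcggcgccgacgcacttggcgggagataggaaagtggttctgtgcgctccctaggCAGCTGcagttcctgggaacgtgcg
Ttn: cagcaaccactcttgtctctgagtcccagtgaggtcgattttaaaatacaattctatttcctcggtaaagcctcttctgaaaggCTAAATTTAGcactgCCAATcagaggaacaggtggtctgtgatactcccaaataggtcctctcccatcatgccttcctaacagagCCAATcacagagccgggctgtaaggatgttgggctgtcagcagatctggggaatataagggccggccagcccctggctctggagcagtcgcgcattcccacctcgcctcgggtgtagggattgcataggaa
Chrng: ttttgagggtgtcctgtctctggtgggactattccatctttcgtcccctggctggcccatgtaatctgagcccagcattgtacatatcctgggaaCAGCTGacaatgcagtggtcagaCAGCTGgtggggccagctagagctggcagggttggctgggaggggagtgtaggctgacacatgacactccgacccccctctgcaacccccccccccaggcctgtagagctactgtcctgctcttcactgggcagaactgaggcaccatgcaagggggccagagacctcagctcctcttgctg
Klhl41: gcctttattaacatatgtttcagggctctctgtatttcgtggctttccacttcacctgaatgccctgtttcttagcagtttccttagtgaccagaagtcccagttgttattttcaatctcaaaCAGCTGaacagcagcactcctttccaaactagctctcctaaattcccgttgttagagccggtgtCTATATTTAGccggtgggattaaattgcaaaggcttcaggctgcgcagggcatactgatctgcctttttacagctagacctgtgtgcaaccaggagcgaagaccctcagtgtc
Counted to the first base of a match, Ccnb1 held CCAAT 99 and 67 bases before the start, and Cdc6 held the E2F motif 138 bases before it. Both Cdc6 and Mybl2 held an E-box 26 bases after the start. In Ttn, CCAAT lay 151 and 81 bases before the start and the MEF2 motif 166 bases before it. Chrng held E-boxes 155 and 132 bases before its start, and Klhl41 held an E-box 127 and a MEF2 motif 63 bases before its own. A match is a run of letters and not a binding site. The windows shown need not stand for their groups. Of the start sites of these groups not shown, Myog and Tk1 held none of the marked motifs. Mybph held an E-box and Smyd1 held CCAAT, and neither held a MEF2 motif. Bub1 and Cenpf held CCAAT, and Prim1 held CCAAT and the E2F motif.

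The markers of the labelled cell type were present in every library. All 7 satellite cell markers (Pax7, Myf5, Myod1, Itga7, Vcam1, Cdh15 and Sdc4) had a peak within 2 kb of an end in each library, summing to 23.6 and 24.7 kb in ASC and to 21.9 and 23.4 kb in FISC. The ASC lists held 50154 and 54700 peaks over 49.2 and 57.7 Mb, and the FISC lists held 45014 and 43092 peaks over 34.4 and 33.7 Mb. The deposited fold enrichments and p-values fitted a background of 2.33 and 2.86 reads in ASC and of 2.72 and 2.82 reads in FISC, with whole reads at the summit for 65.9 to 84.4% of the peaks of a list (within 0.02 reads). The weakest summits solved this way held 8 to 10 reads, so a region without a peak may hold acetylation too weak to be called.

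Gain at gene ends was the smallest share of all gain. Gained gene-end regions made up 8.63% of the 14455 gained regions (exact binomial 95% interval 8.18 to 9.1%, counting error only), against 49.6% in gene bodies and 41.8% between genes. The share was alike among the 5301 lost regions, of which 8.81% lay at gene ends (8.06 to 9.6%). Read by place, 7.94% of gene-end regions were gained, against 20.5% of gene-body, 27.5% of intergenic and 19.9% of all regions. At gene ends 467 regions were lost (peak in both FISC and neither ASC library, 2.97%, against 8.59% in gene bodies, 8.36% between genes and 7.3% of all regions), and 9969 had a peak in all 4 libraries and are called constant here (63.4%). Genes with a gained gene-end region made up 5.5% of protein-coding genes, against 2.19% with a lost one, and 19 genes had both. These counts follow from the rule and carry no test. They depend on how the lists are cut. With each list cut to its strongest peaks at an equal number of 43092 peaks, 956 gene-end regions were gained and 605 were lost, and 75.5% of the members were overlapped. At an equal covered length of 33.7 Mb, 109 were gained and 2241 were lost, and with 1 ASC library left out 2380 to 2764 were gained.

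The gained regions were short and weak beside constant ones, with a tail of strong members. Bases under peaks had a median of 460 in ASC replicate 1 and 550 in ASC replicate 2, ranging between 200 and 8104 and between 200 and 8762. In constant gene-end regions the medians were 1532 and 1674 bases in the same libraries. Fold enrichment at the strongest summit, the authors' ratio of reads to local background, had medians of 4.81 and 4.92 in gained gene-end regions and of 18.9 in constant ones in both libraries. Gained regions away from gene ends lay close to the gained gene-end regions, with medians of 533 and 624 bases and of 5.11 and 5.18 fold. At the summit the gained gene-end regions held a median of 15 reads in ASC replicate 1 (829 regions solved) and 18 in ASC replicate 2 (938 solved). In both ASC libraries 46 members exceeded 2 kb and 94 exceeded 10 fold, while 479 stayed under 500 bases. Lost gene-end regions had medians of 399 and 384 bases and of 4.16 and 4.19 fold in the FISC libraries.

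The ASC libraries gave like values for most members. Fold enrichment differed by less than 1.5 times between the libraries in 1132 members (90.7%), and the Pearson correlation of log2 fold enrichment over the 1248 members was 0.84, a description over regions that share their 2 libraries. The median Jaccard index of the bases covered was 0.663. Replicate 2, the library with the longer list, covered more bases in 800 members (64.1%) and replicate 1 in 437, and replicate 2 had the higher fold in 632. That the ASC peaks of every member share at least 1 base follows from the merging rule and says nothing about agreement.

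**Figure D1:**
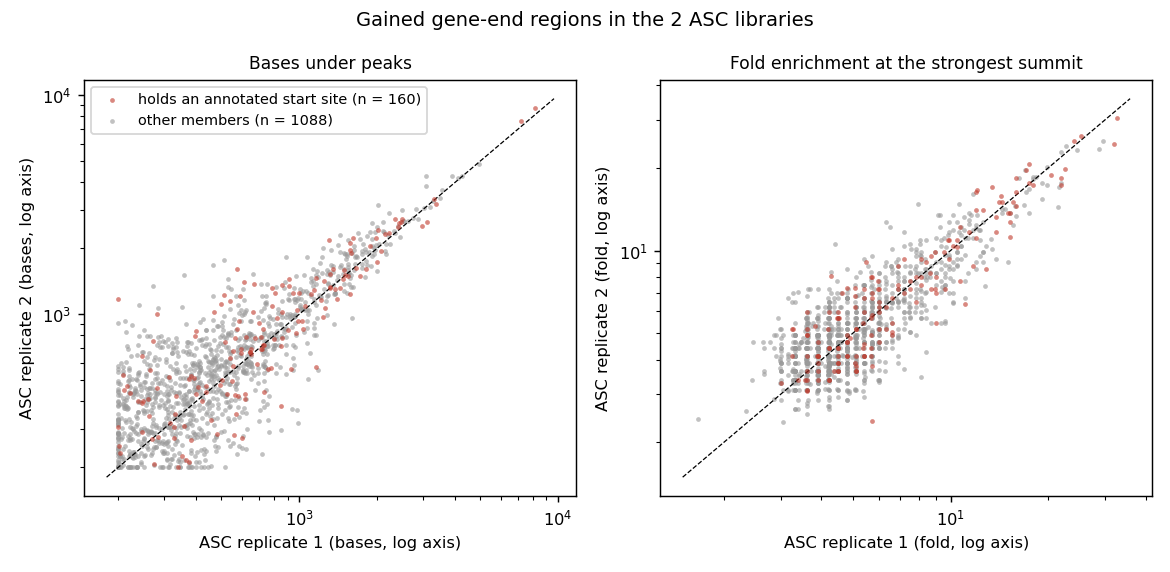
Bases under peaks (left) and fold enrichment at the strongest summit (right) of the 1248 gained gene-end regions, ASC replicate 1 on the x axis and ASC replicate 2 on the y axis, both log axes, with the dashed line at equal values. Regions that hold an annotated start site (160, red) run up to 8762 bases, and the spread about the line is widest among the shortest regions.

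Gained gene-end regions seldom covered the start site itself. RefSeq start sites with their strand were at hand for 17491 genes (79.9%), which fixed the nearest end of 949 of the 1248 members. Of these, 526 lay nearest to a start and 423 nearest to the other end of the gene, called the stop here (55.4% at starts, exact binomial 95% interval 52.2 to 58.6%). Among lost gene-end regions 54.7% lay at starts (49.4 to 59.9%), and among constant ones 95.1% (94.6 to 95.6%). An annotated start site fell inside 160 gained regions (12.8%, 11.0 to 14.8%), 78 lost regions (16.7%) and 7322 constant regions (73.4%). These shares are over all regions, also the 299 gained, 105 lost and 1939 constant ones whose nearest end had no strand in the table, and a start site missing from the table could not be counted. The intervals cover counting error only, and the gained and lost ones overlap for the share at starts.

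Round the start, constant regions were centred just inside the gene, with 85.7% of midpoints downstream and a median distance of 342 bases. Gained regions spread to both sides, with 58.2% downstream and a median distance of 587 bases, and 10.5% of them fell in the bin of 0.25 kb centred 375 bases upstream. Lost regions had 70.2% downstream and a median of 523 bases. At stops gained regions were spread evenly, with 4.26 to 8.04% in each bin of 0.25 kb and 49.6% of midpoints inside the gene.

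**Figure D2:**
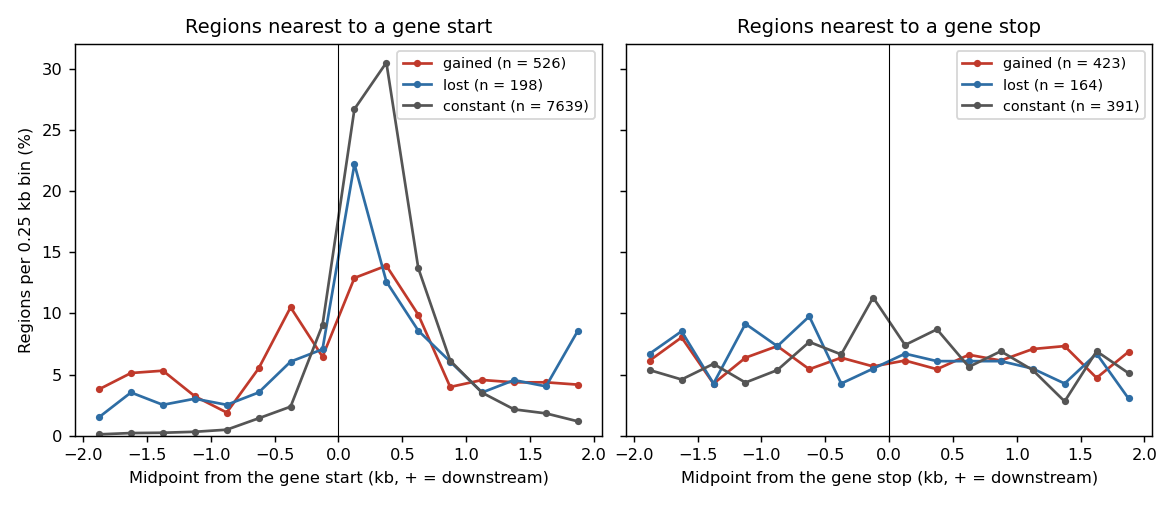
Midpoints of gained, lost and constant gene-end regions as a percentage of regions per 0.25 kb bin, at gene starts (left) and gene stops (right), with downstream distances in kb to the right of 0. Constant regions peak inside the gene start, gained regions reach 13.9% of regions there and 10.5% just upstream, and gained regions stay between 4.26 and 8.04% per bin at stops.

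Sorted by what lay at the gene's own start, the members fell into several kinds. The 160 that held a start site were the strongest, with a median of 735.8 bases and 6.15 fold (mean of the ASC libraries), and lay far from any FISC peak, with a median gap of 23210 bases. Another 156 (12.5%) lay beside a start site that was itself in a constant region. These were the weakest, at 389.5 bases and 4.3 fold, and the nearest FISC peak was 491 bases away in the median. A further 212 (17.0%) lay beside a start that was in another kind of region or in none, with 414.5 bases and 4.54 fold. Their median gap of 21420 bases was close to that of the members that held a start site. At stops, 286 members (22.9%) belonged to genes whose start lay in a constant region, with 556.2 bases, 4.74 fold and a median gap of 5908 bases, and 136 (10.9%) to genes with another start state, with 527.2 bases and 4.89 fold. For the remaining 298 (23.9%) the strand was not in the table used here.

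In the lists as deposited, genes with a gained gene-end region carried a FISC peak about as often as genes in general. Of the 1204 genes, 733 had a FISC peak within 2 kb of an end (60.9%, exact binomial 95% interval 58.1 to 63.6%), against 58.2% of all protein-coding genes, and 471 had none. Over the whole genome 405 members (32.5%) lay within 2 kb of a FISC peak and 534 (42.8%) lay more than 10 kb from one. Among gained regions elsewhere 16.6% lay within 2 kb. Of 363 genes with a member at the stop, 66.7% had their start in a constant region, against 50.9% of all 17491 genes with a known start. Of 479 genes with a member at the start, 31.7% had the start site in a gained region and 33.0% in a constant one.

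The longest and strongest members were a mixed company of signalling, cell cycle and muscle genes. The longest was at Traf1, whose protein is an adaptor in TNF receptor signalling, where a block over the start site (chr2:34956420-34965181) covered 8104 and 8762 bases in the ASC libraries at 31.9 and 24.5 fold, with 0 bases in both FISC libraries. Next came Tk1, which encodes a thymidine kinase of dividing cells (chr11:117822192-117829926), with 7161 and 7630 bases in ASC at 17.4 and 20.7 fold and 57 and 79 reads at the summits, again with 0 in FISC. The highest fold enrichment was at Baiap2l1, which links membrane curvature to actin (chr5:144355595-144359102), with 32.5 and 30.3 fold, 3376 and 3180 bases and 107 and 116 summit reads in ASC. In all 3 regions both ASC libraries held long, strong peaks where FISC had none, and the ASC libraries differed from each other by less than 1.5 times in both measures.

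Several of the strongest members lay at the stop of the gene. At the stop of Capn1, a calcium-dependent protease, the region chr19:5987828-5992779 covered 4947 and 4826 bases in ASC at 18.3 and 18.6 fold, and the gene's start lay in a constant region. Coq7, an enzyme of ubiquinone synthesis, had 3496 and 3375 bases at 22.7 and 24.0 fold beyond its stop (chr7:118506271-118510036), also with a constant start. The cilium gene Fbf1 had 3096 and 3862 bases at 19.1 and 15.4 fold over its stop. Start sites of the other stop members, the serine protease gene Prss36 (29.5 and 25.1 fold) and the muscle membrane protein gene Tmem182 (24.6 and 23.2 fold), carried no peak in any library. Whether these regions act on the gene they lie at was not measured.

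The rest of the leading members spanned several functions. Ccr4, a chemokine receptor, had a region upstream of an uncovered start with 2515 and 2656 bases at 28.6 and 23.5 fold. Among the longest were also genes whose strand was not in the table. Jrk, related to transposases, had 4104 and 4202 bases in ASC at 9.68 and 10.3 fold. Msln, a cell surface glycoprotein, had 3883 and 4258 bases at 15.0 and 9.07 fold. Prr13 had 3572 and 3705 bases at 19.8 and 20.2 fold.

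Genes of the cell cycle gained acetylation mostly at start sites. Of 74 listed genes 9 had a gained gene-end region (12.2%, against 5.5% of all genes) and 1 a lost one, Cdk1, the kinase of mitotic entry. Under other settings Cdk1 was itself among the gained genes. This held at −log10 q of at least 5, at 5 fold, within 5 kb, without ASC replicate 2 and without FISC replicate 1. Of the 9 regions 8 lay at starts, 7 of them over the start site itself, and the strand of Aurkb was not in the table. The median over the 9 was 1418 bases and 17.3 fold, against 4.81 and 4.92 fold over all members in the ASC libraries. Most listed genes, 65 of 74, already had a FISC peak at an end. Of the 9 that had none, 7 gained a gene-end region (77.8%), against 471 of 9157 such genes in all (5.14%). Absence in FISC is part of the rule, so this share only describes which of these genes had ASC peaks and carries no test.

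By role, the gained regions covered S phase, mitosis and a transcription factor of the cycle. Cdc6, which loads the replicative helicase (chr11:98907275-98909230), had 1576 and 1956 bases in ASC at 20.4 and 18.9 fold. Prim1, the catalytic subunit of primase (chr10:128015069-128015893), was lower, with 799 and 769 bases at 5.09 and 6.82 fold. Mybl2, the transcription factor B-Myb (chr2:163054355-163056465), had 1575 and 2111 bases at 24.0 and 25.1 fold, with 79 and 96 summit reads. Its start and that of Cdc6 are among the sequences shown above, both with an E-box just after the start. Among mitotic genes, Ccnb1, the cyclin of mitotic entry (chr13:100785427-100786989), had 1563 and 1230 bases at 22.5 and 19.9 fold. Aurkb, the kinase of the chromosomal passenger complex, had 1204 and 1719 bases at 16.2 and 18.4 fold. Cenpf, a kinetochore protein, had 1315 and 1521 bases at 13.8 and 11.7 fold. The checkpoint kinase gene Bub1 was narrower but as strong, with 653 and 655 bases at 15.3 and 12.7 fold. In each of these the ASC libraries lay within 1.5 times of each other in fold, and FISC had 0.

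The exception was Dut, the dUTPase that protects the nucleotide pool. Its region lay 1480 bases upstream of a start in a constant region and had 230 and 235 bases at 3.61 and 3.88 fold. Ticrr, a replication factor that is not on the list, was among the 10 strongest members, with 1308 and 1318 bases over its start at 25.2 and 26.2 fold (chr7:79660087-79661455). The list count moved with the lists: 8 genes at equal covered length, 14 among peaks with −log10 q of at least 5, 18 among peaks of at least 5 fold, 18 without FISC replicate 1, and 17 and 22 without ASC replicate 1 or ASC replicate 2. At equal covered length 7 of the 9 were still counted, all but Dut and Prim1, together with Pold1.

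Sarcomere genes gained regions at starts and at stops. Of 57 listed genes 15 had a gained gene-end region (26.3%, against 5.5% of all genes), with 20 regions in all, and 3 had a lost one, the myosin heavy chain gene Myh2, Mybpc2 and Tcap. Such regions lay at starts of 7 genes, at stops of 5 and at ends of unknown strand of 4. The median was 593.5 bases and 5.72 fold. Of the 29 listed genes without a FISC peak at an end 8 gained a region (27.6%, against 5.14% of all such genes). Here too absence in FISC is part of the rule, and the share is a description.

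The longest sarcomere regions were those of Xirp1 and Ttn. Xirp1, an actin-binding protein of muscle (chr9:120020933-120025414), had 4252 and 4288 bases in ASC at 21.9 and 22.8 fold. Ttn, the giant spring of the sarcomere, had a block over its start (chr2:76980564-76983955) with 3316 and 3369 bases at 17.4 and 17.6 fold, and a second region 1876 bases upstream with 303 and 372 bases. In both genes the ASC libraries nearly coincided. Tnnt3, a troponin T of fast muscle, had 2144 and 1934 bases at 11.7 and 16.1 fold, and Lmod3, which builds thin filaments, had 1748 and 1942 bases at 10.8 and 11.4 fold. Smyd1, a methyltransferase of muscle, had 1303 and 2171 bases over its start at 12.0 and 16.3 fold. Tnnt2, the cardiac and embryonic troponin T, had 1740 and 1619 bases at its stop. Myl1, a myosin light chain, had 1138 and 1173 bases at its stop, and neither start carried a peak in any library. At the other extreme Myh3, the embryonic myosin heavy chain, had 283 and 438 bases upstream of its start at 2.85 and 2.89 fold. At equal covered length 5 of these genes were counted, Ttn, Tnnt3, Lmod3, Xirp1 and Smyd1.

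Klhl41, a sarcomere protein of the kelch family, was one of 3 genes with 4 gained gene-end regions. A pair lay at its start (chr2:69669061-69669687 and chr2:69669898-69670511) and a pair at its stop (chr2:69684047-69684705 and chr2:69684816-69685688). They covered 305, 614, 611 and 507 bases in ASC replicate 1 and 627, 409, 546 and 844 in ASC replicate 2, at 4.21 to 6.99 fold. The others were Specc1, with 3 regions at its stop and 1 beside a constant start (3.03 to 7.51 fold), and Txndc2, with 3 at its start and 1 at its stop (3.58 to 7.25 fold). In all, 168 genes had at least 2 gained gene-end regions and 26 at least 3.

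Genes of commitment and fusion had the highest share of the 23 lists, with 9 of 32 genes gained (28.1%, against 5.5% of all genes) and 0 lost. The number gained depended on the distance limit, with 4 genes within 1 kb and 13 within 5 kb. The regions had a median of 685.5 bases and 5.74 fold. Only Myog and Mymk among the 9 lacked a FISC peak at both ends. Mymk, the membrane protein that starts fusion (chr2:27069659-27072134), had 2339 and 2336 bases in ASC at 7.21 and 11.7 fold. Mymx, its partner in fusion, had 531 and 1451 bases at 5.67 and 5.81 fold. Chrng (chr1:87204129-87206553) had 2012 and 2425 bases over the start printed above at 11.1 and 6.36 fold. The region counted for Chrnb1, another receptor subunit, lay 1997 bases upstream of its start and nearer to the stop of Fgf11, with 1541 and 1649 bases at 6.31 and 12.7 fold. The region counted for Hrc was likewise nearest to another gene, Ppfia3.

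Myog, the factor that turns myoblasts to differentiation, differed widely in length between the ASC libraries. Its region over the start (chr1:134289488-134290658) covered 200 bases in ASC replicate 1 and 1171 in ASC replicate 2, at 3.28 and 5.18 fold, with 0 in both FISC libraries. The value of ASC replicate 1 is the shortest length a peak has in these regions, so the width of the Myog region rests on a single library. No gene of this list was counted at equal covered length.

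Cytokine and chemokine genes gained at 6 of 39 genes (15.4%, against 5.5% of all genes), with none lost. Traf1, described above, led the list. Ccl8, a chemokine that attracts monocytes, had a region over the whole gene (chr11:82115126-82116942) with 1817 and 1605 bases in ASC at 8.96 and 7.25 fold. Cxcl2, which attracts neutrophils, had 994 and 1255 bases over its start at 8.12 and 9.32 fold and a second region upstream with 257 and 297 bases. Il4ra, a subunit of the interleukin 4 receptor, had a strong region beyond its stop (chr7:125580793-125581791) with 893 and 999 bases at 15.8 and 14.5 fold. Il6 and Icam1 were near the lower limit, with 200 and 225 bases for Il6 and 200 and 306 for Icam1. The region counted for Icam1 lay nearest to Icam4 and held that gene's start site. Traf1 and Il4ra were the list's genes counted at equal covered length.

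**Figure D3:**
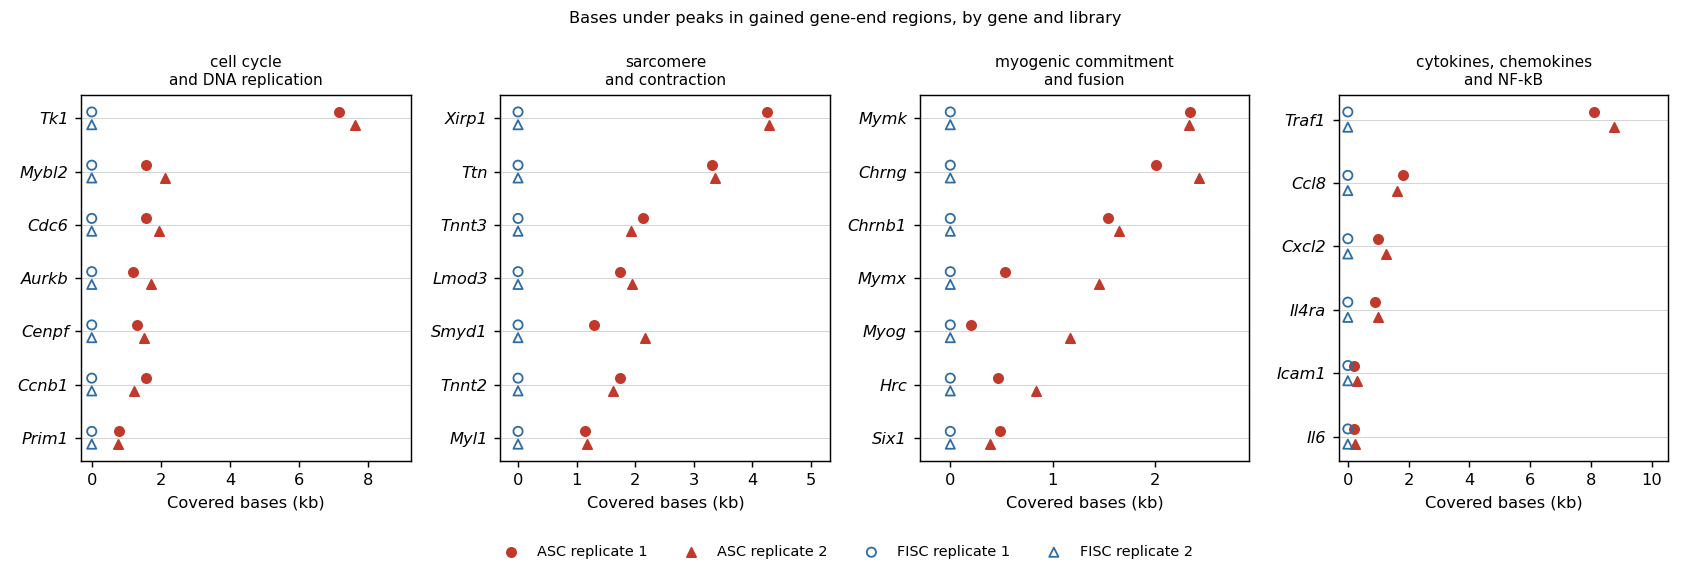
Bases under peaks (kb, x axis) in the longest gained gene-end region of up to 7 genes of 4 gene lists, with ASC libraries as filled red symbols and FISC libraries as open blue ones (circles replicate 1, triangles replicate 2). Every FISC value is 0 by the rule, Tk1 and Traf1 exceed 7 kb in both ASC libraries, and Myog and Mymx have the widest gap between the ASC libraries in their panel.

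Growth factor genes gained at 5 of 43 (11.6%, against 5.5% of all genes) and lost at 3, Pdgfrb, Bmp1 and Ret. Fst, the follistatin that binds activin and myostatin, had 3 regions at the same end, the longest with 1621 and 1590 bases in ASC at 7.51 and 5.72 fold. Fgf7, a fibroblast growth factor, had 644 and 672 bases over its start. Gdf15 had 661 and 1518 bases upstream of its start at 5.08 and 6.47 fold, and Igfbp2, a carrier of insulin-like growth factors, had 747 and 553.

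Adhesion and cytoskeleton genes gained at 7 of 50 (14.0%, against 5.5% of all genes) and lost at none. Most of these regions were small, with a median of 278 bases and 4.07 fold. Tuba1a, a tubulin, had 411 and 366 bases in ASC, Nes, the intermediate filament nestin, had 200 and 454, and Actb had 267 and 289. In these 3 a FISC peak lay at an end of the gene.

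Among extracellular matrix genes 5 of 54 had a gained gene-end region (9.26%, against 5.5% of all genes) and 8 a lost one (14.8%, against 2.19%). Spp1, the secreted phosphoprotein osteopontin, had 1049 and 1088 bases in ASC over its start and 723 and 580 just upstream. Col5a2 had 542 and 591 bases. Col15a1 had a gained region of 763 and 424 bases at its stop while its start lay in a lost region. The lost genes were Col6a1, Col15a1, Thbs2, Lama4, Bgn, Loxl2, Mmp2 and Plaur.

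Genes of quiescence gained at 3 of 25 (12.0%) and lost at 3, Calcr, Ndrg2 and Chrdl2. The gained regions were at Foxo4, a forkhead factor (962 and 1141 bases, 6.01 and 6.47 fold), Angpt1, an angiopoietin (346 and 509 bases), and Notch3, a Notch receptor that is also on the smooth muscle list (365 and 418 bases), each at a gene with a FISC peak at an end. Chromatin and RNA factors of growing cells gained at 2 of 22 (9.09%), Runx2, a runt-domain factor, with 1485 and 1592 bases over its start at 6.87 and 7.25 fold, and Igf2bp3, an RNA-binding protein, with 209 and 550. Glycolysis and nucleotide synthesis gained at 4 of 43 (9.3%, against 5.5% of all genes), Pfkl, Pfkp, Aldoa and Eno3, with 244 to 400 bases in the ASC libraries. Immediate early genes gained at 2 of 26 (7.69%), both phosphatases of the MAP kinases at their stops, Dusp5 with 1109 and 1207 bases and Dusp6 with 200 and 284, and lost at Egr1 and Dusp1.

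Lists near or under the 5.5% of all genes were ribosome biogenesis (Ncl, 1 of 25, 221 and 306 bases), oxidative phosphorylation (Cox8b, 1 of 25, 222 and 436 bases), interferon response (0 of 27, with Ifit1, Ifit3 and Irf8 lost) and the satellite cell markers (0 of 7, with Sdc4 lost). All 25 genes of ribosome biogenesis and 22 of 25 of oxidative phosphorylation carried a FISC peak at an end. With 5.5% of genes gained in all, the counts of lists with 1 to 3 genes gained cannot be read as different from that level.

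**Figure D4:**
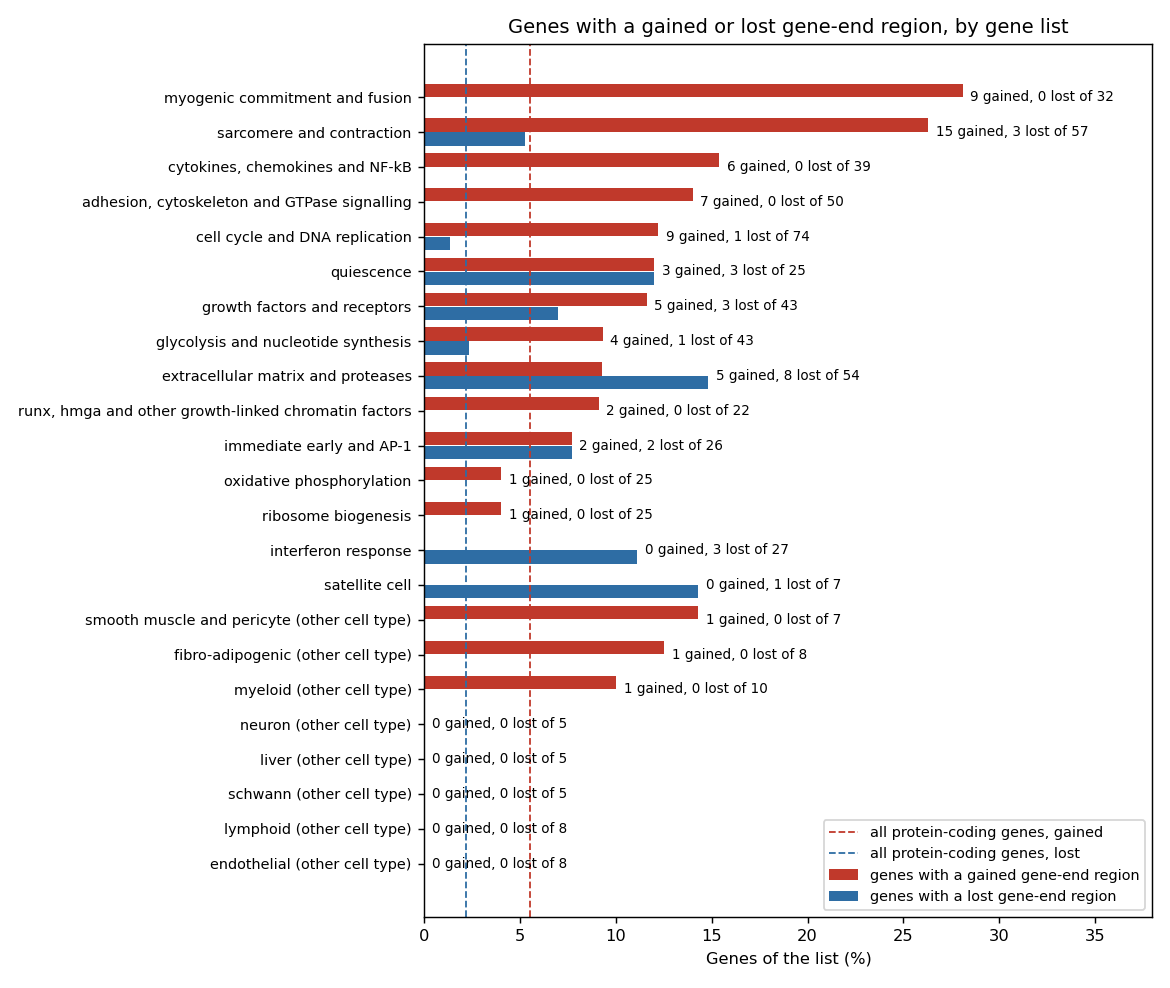
Percentage of the matched genes of each list (x axis) that had a gained (red) or lost (blue) gene-end region, with counts beside the bars and dashed lines at the 5.5% and 2.19% of all protein-coding genes. Commitment and fusion (28.1%) and sarcomere (26.3%) lead for gain, and extracellular matrix has 5 genes gained and 8 lost.

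Markers of other cell types were covered to different extents. Of the 10 myeloid markers 3 had a peak at an end in each ASC library and 2 in each FISC library, with summed lengths of 3.94 and 5.41 kb in ASC and 2.6 and 2.36 kb in FISC. Ptprc, Adgre1, Itgam, Lyz2, Cx3cr1 and Tyrobp, which define leukocytes and macrophages, were at 0 in all libraries. Most of the sum came from Cd68 (1868 and 3498 bases in ASC, 1553 and 1047 in FISC) and Spi1 (1748 and 1561 in ASC, 1049 and 1314 in FISC). The rest was a peak in a single ASC library each, with 320 bases at Laptm5 in replicate 1 and 347 at Csf1r in replicate 2, both at 0 in FISC. Spi1 had a gained region of 287 and 263 bases. Of the 8 fibro-adipogenic markers 4 had a peak in each ASC library and 3 in each FISC library. They summed to 6.29 and 7.54 kb in ASC and to 6.25 and 6.27 kb in FISC, with Pdgfra, Dcn, Lum and Col1a1 at 0 throughout. Col3a1 (2937 and 2810 bases in ASC, 2198 and 2507 in FISC), Dpt (762 and 1262 in ASC, 2374 and 2267 in FISC) and Cd34 (1144 and 1049 in ASC, 1682 and 1493 in FISC) were covered in all libraries. In that list Ly6a, a surface antigen, had a gained region of 1442 and 2300 bases at 8.06 and 9.67 fold.

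Of 8 endothelial markers 1 had a peak in each ASC library and 2 in each FISC library. They summed to 0.614 and 0.971 kb in ASC and to 1.59 and 1.64 kb in FISC, with Pecam1, Cdh5, Emcn, Tie1 and Esam at 0. Of 8 lymphoid markers 2 had a peak in each library, and they summed to 1.35 and 1.53 kb in ASC and to 1.98 and 1.71 kb in FISC, with Cd3g, Cd8a, Cd2 and Lck among those at 0. Of 7 smooth muscle and pericyte markers 3 (replicate 1) and 4 (replicate 2) had a peak in ASC, against 5 (replicate 1) and 4 (replicate 2) in FISC, with sums of 11.2 and 12.7 kb in ASC and of 11.6 and 10.7 kb in FISC, where Acta2, Notch3 and Des were covered in all libraries. Of 5 Schwann cell markers 3 had a peak in ASC replicate 1 and 2 in each other library, with sums of 3.24 and 3.46 kb in ASC and of 3.41 and 2.95 kb in FISC. Liver and neuron markers were at 0 in every library. Beside the gained cytokine and chemokine regions it stands that 6 of 10 myeloid markers had no peak at an end in any library. The summed length of the 10 markers was longer in ASC (3.94 and 5.41 kb) than in FISC (2.6 and 2.36 kb). The part of leukocytes in the cytokine and chemokine regions was not tested.

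Start sites inside gained regions were intermediate in CpG and GC content between constant start sites and those without a peak. The 160 regions held 173 annotated start sites of 163 genes. In windows of 300 bases the ratio of observed to expected CpG had a median of 0.556 in gained regions (quartiles 0.359 and 0.765), 0.641 in lost, 0.809 in constant, and 0.223 at start sites without a peak, against 0.567 at all 21262 start sites. The ratio was at least 0.6 in 45.7% of start sites in gained regions and in 81.7% of those in constant regions. The GC content had medians of 58.0% in gained, 63.3% in lost and 62.3% in constant regions, and of 48.7% at start sites without a peak.

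The gained start sites of the gene groups spanned this range. The 7 start sites of cell cycle genes had a median CpG ratio of 0.84, near that of constant start sites, and the 4 of sarcomere genes 0.267, the 3 of cytokine genes 0.225 and the 2 of commitment genes 0.224, near that of start sites without a peak. The windows printed above had ratios of 0.883 at Ccnb1, 0.84 at Mybl2, 0.745 at Cdc6, 0.4 at Ttn, 0.377 at Klhl41 and 0.0758 at Chrng. These are descriptions of few start sites.

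Matches to 14 motifs were counted on both strands of the same windows, the same letters being allowed in more than 1 motif (a MEF2 match can contain the TATA letters). CCAAT was present in 42.2% of start-site windows in gained regions, against 38.2% of all windows. The E-box CAGCTG stood in 20.8% against 15.6%, the RUNX motif TGTGGT in 22.0% against 15.0%, the MEF2 motif in 5.78% against 2.74%, the E2F motif GCGGGAA in 8.09% against 5.95% and the AP-1 motif TGANTCA in 8.09% against 6.99%. The ETS motif CCGGAA was present in 12.1% against 18.7%, while constant regions had it in 32.5%, and the GC box GGGCGG in 50.3% against 46.2%, with 70.1% in constant regions. TATAAA stood in 11.0% against 12.6%, the CHR motif TTTGAA in 14.5% against 16.0%, the TEAD motif GGAATG in 11.0% against 13.6%, the FOX motif TGTTTAC in 2.31% against 3.01%, the motif of NF-kB in 5.78% against 4.81% and the CArG box in 1.16% against 1.52%. At start sites without a peak the shares were 39.1% for CCAAT, 16.7% for the E-box and 19.4% for RUNX. They were 4.35% for MEF2, 2.39% for E2F and 9.99% for AP-1, the last above the share in gained regions. In lost regions, with 89 start sites, the shares were 24.7% for CCAAT, 20.2% for the E-box, 6.74% for RUNX and 2.25% for MEF2. There E2F stood at 3.37%, AP-1 at 5.62%, NF-kB at 6.74%, ETS at 8.99% and the GC box at 56.2%. The E-box share was thus alike in gained and lost regions. The MEF2 and NF-kB shares in gained regions rested on 10 of 173 windows each. Of the 7 cell cycle start sites 4 held CCAAT, 5 the GC box and 2 the E2F motif. Of the 4 sarcomere start sites 2 held an E-box and 2 a MEF2 motif.

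**Figure D5:**
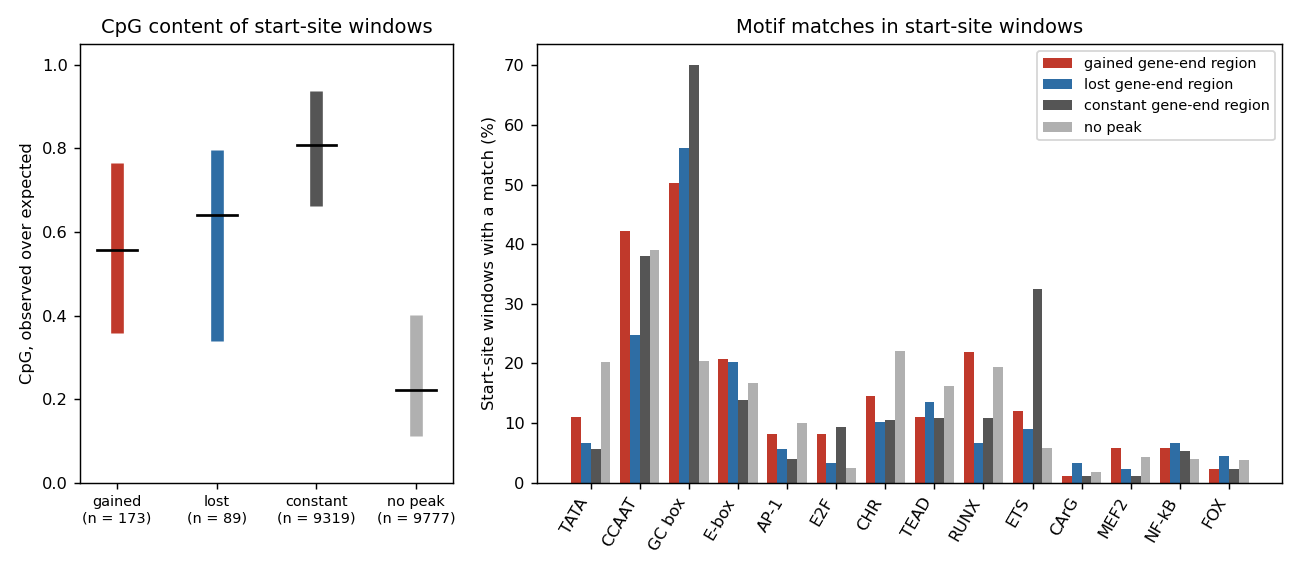
Left, ratio of observed to expected CpG in windows of 300 bases at start sites in gained, lost and constant gene-end regions and without a peak (bars between the quartiles, black lines at the medians). Right, percentage of these windows with a match to each motif: gained start sites lie under constant ones for the ETS motif (12.1% and 32.5%) and the GC box (50.3% and 70.1%).

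The rule leaves out some genes with more covered bases in ASC. At the start of Hmga2, a chromatin protein of growing cells, 3785 and 3897 of the 4 kb round the start were covered in ASC and 0 and 200 bases in FISC, and the short FISC peak makes the region no member. Runx1, a runt-domain factor, had its whole window covered in ASC (4001 bases in both) and 750 and 961 bases in FISC, and Cd44, a hyaluronan receptor, had 3397 and 3583 in ASC and 2641 and 2665 in FISC. At both a peak lay within 2 kb of the start in every library. The windows round the starts of Pax7 (2831 and 2842 bases in ASC, 3263 and 3080 in FISC) and Myf5 (3888 and 4001 in ASC, 4001 and 4001 in FISC), the factors of satellite cell identity, held peaks in both conditions, as did those at both ends of Myod1. Calcr, the calcitonin receptor of quiescent cells, had 0 bases at its start in both ASC libraries and 1314 and 947 in FISC. Lif had no peak at its start in any library, and 316 and 390 bases at its stop in ASC against 780 and 665 in FISC.

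At the distance limit of 2 kb the choice is one of bases. The last members inside it lay 1999.5 bases from an end at Bnip3 (1537 and 1588 bases in ASC, 6.31 and 6.73 fold) and H2bc4 (200 and 231 bases, 3.91 and 3.88 fold) and 1999 bases at Ppp1r37 (382 and 409 bases, 5.11 and 3.63 fold). The first gained regions outside lay at 2001.5 bases from Sohlh2 (835 and 1148 bases, 10.2 and 6.47 fold), 2005 bases from Pkhd1 (1938 and 2174 bases, 6.91 and 10.6 fold) and 2006 bases from Utp14a (365 and 427 bases, 5.71 and 4.92 fold). Within the limit 147 members (11.8%) lay at ends of 2 or more genes, so that the gene named is the nearest and not the only candidate.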

How the data were processed

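H3K27ac was measured in 2 ASC and 2 FISC libraries, sequenced in single reads of 75 bases on a NextSeq 500 per the labels' protocols. The submitters' processing notes list mm10 and bcl2fastq 2.19, with BWA, Picard and MACS2. The sources used here do not state versions for those 3, any settings, how duplicates were treated or whether inputs entered the calls. Each library has a deposited narrow peak list, in which the authors give a fold enrichment (a ratio over the local background), the −log10 p and −log10 q values and a score. Fold enrichment depends on each library's depth and was set side by side only within ASC, or beside its library.

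Peaks were merged at 1 shared base, and bases under peaks were counted per library and region (Python 3.11.15, pandas 2.3.3, numpy 2.4.6, scipy 1.17.1). Reads at summits were solved from the fold enrichment over a common background per library, within a tolerance of 0.02 reads. This estimate of depth is not the authors'. Gene coordinates, start sites and strand came from RefSeq on GRCm38.p6, the assembly of mm10, and start sites of chromosome 18 were not used. No genome was used, so motifs were searched only in windows at annotated start sites. A region was credited to the nearest gene, except in the gene lists, where any gene within 2 kb counts. The region counts were checked on simulated peaks, where 500 of 500 regions were classified as made.

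The members and the 23 gene lists were chosen with earlier results of these data known, and the members by the ASC and FISC contrast itself, so no test was run. Shares carry exact binomial (Clopper-Pearson) intervals at 95%, which cover counting error only. Genes named are the 10 highest in mean ASC fold, the 10 longest, up to 4 per list by mean length, the 3 with most regions, those nearest the distance limit, and Pax7, Myf5, Myod1, Myog, Calcr, Tk1, Ttn, Hmga2, Chrng, Runx1, Cd44 and Lif. Predicted genes were not named, and some genes that the rule picks are not reported here. Genes named beyond this rule (further members of a list, Dut, Prim1, Myh3 and the like) and the genes named under other observations were chosen after their values were seen. Of 29 interferon genes listed, 2 did not match the annotation (Mx1 and Mx2). Alternatives were peaks of −log10 q of at least 5 or of at least 5 fold, lists cut to equal peak number (43092) or equal covered length (33.7 Mb), gaps of up to 500 bases merged, the summit in place of the midpoint, distance limits of 1 and 5 kb, and each library left out.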

Additional observations from a re-analysis of the deposited data

How the results depend on the processing

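Of 48 recomputed values of the 4 summary results 38 moved, a count by over 1.5 times and a share by leaving its exact binomial 95% interval. The number of gained gene-end regions, 1248 as deposited, was 109 at equal covered length, 792 with gaps of up to 500 bases merged, 723 within 1 kb and 2572 within 5 kb, and it ranged between 1459 and 2764 with a library left out. It was 955 at −log10 q of at least 5, 967 at 5 fold, 956 at equal peak number and 1242 by the summit. The share of gained regions at gene ends (8.63%) was 9.22% at −log10 q of at least 5, 11.1% at 5 fold, 6.89% at equal covered length, 7.65% with gaps merged, 5.0% within 1 kb, 17.8% within 5 kb, and between 9.26 and 10.3% with a library left out. The share of gene-end regions gained (7.94%) was 7.36% at −log10 q of at least 5, 8.53% at 5 fold, 6.53% at equal peak number, 0.832% at equal covered length, 6.21% with gaps merged, 5.89% within 1 kb, 11.5% within 5 kb, and between 9.41 and 17.6% with a library left out. The share of genes with a FISC peak at an end (60.9%) was 47.5% at −log10 q of at least 5, 37.6% at 5 fold, 57.3% at equal peak number, 37.7% at equal covered length, 45.7% with gaps merged, 47.3% within 1 kb, 75.9% within 5 kb, and between 55.9 and 73.3% with a library left out. The same share over all protein-coding genes was not recomputed under these settings, so its likeness to the gained genes is known only as deposited.

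At equal covered length 107 of the 1248 members (8.57%) were overlapped by a gained region, among them 37 of the 160 over a start site (23.1%) and 1 of the 156 beside a constant start. Of the counts for 6 gene lists 49 stayed within 1.5 times and 23 moved. Leaving out an ASC library raises the count because a single list then decides presence. No paired analysis was possible because the results come from no test. The lists hold no coverage outside peaks, so acetylation under the threshold of the peak caller in FISC could not be measured, and the longer ASC lists and the condition cannot be told apart.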

Other observations

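Further cell cycle genes that are not on the list stood among the regions gained at equal covered length, and they were picked out after their values were seen. Iqgap3, a scaffold protein, had 1656 and 1628 bases in ASC at 14.4 and 15.0 fold over its start. The kinase gene Melk had 1140 and 1284 bases at 15.3 and 11.2 fold, the mitotic kinesin gene Kifc1 1163 and 1468 bases at 14.1 and 15.0 fold, and the spindle protein gene Spag5 1395 and 1173 bases at 15.3 and 13.7 fold. Pclaf, which binds the replication clamp, had 1256 and 1072 bases at 13.4 and 17.1 fold, the histone chaperone gene Asf1b 914 and 1345 bases at 15.0 and 13.7 fold, and Esco2, an acetyltransferase of cohesin, 978 and 1159 bases at 21.9 and 17.6 fold. Each had 0 bases in both FISC libraries.

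Other genes outside the lists were among the longest members, again picked out after their values were seen. Cavin4, a protein of muscle caveolae (chr4:48662430-48665405), had 2976 and 2537 bases over its start in ASC at 21.9 and 18.4 fold. Lgr5, a receptor for R-spondins (chr10:115585446-115587722), had 2244 and 2093 bases at 11.4 and 12.9 fold.

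By chromosome, 56 of the 444 gene-end regions of the X chromosome were gained (12.6%), against 5.77 to 9.38% on the autosomes. The labels do not give the sex of the animals.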
